A study of Homo sapiens with 16 samples.

Results

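HCT116 cells, a human colorectal carcinoma line, were compared after knockdown of MYBL1 and after knockdown of MYBL2, the genes of A-MYB and B-MYB. The comparison joins, by gene identifier, the deposited tables of siMYBL1 against siCtrl and of siMYBL2 against siCtrl, and takes for each gene the siMYBL1 log2 fold change minus the siMYBL2 log2 fold change. It used 4 of the 16 libraries of the series directly, and the HCT116 siCtrl libraries, which both tables share, drop out of the difference. Its members were the 13387 genes present in both tables, of 18865 genes over the 5 tables read here. A positive difference means that a transcript was higher after siMYBL1 than after siMYBL2.

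The groups were HCT116 siMYBL1, given small interfering RNA (siRNA) against MYBL1 alone, HCT116 siMYBL2, given siRNA against MYBL2 alone, HCT116 siMYBL1-siMYBL2, given both, and HCT116 siCtrl, given a non-targeting siRNA. Total RNA was taken 48 h after the start of treatment and sequenced in read pairs, and each group had 2 libraries, called biological replicates in the series' design text. U2OS, a human osteosarcoma line, carried the same 4 treatments, also for 48 h, and is used here only as the second line with the same pair of knockdowns. A knockdown by siRNA lowers a transcript and does not remove its gene, and the sources used here do not give the number of siRNAs per gene. The study asked how A-MYB and B-MYB each act in the mitotic cell cycle.

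A-MYB, B-MYB and c-MYB are DNA-binding transcription factors with a closely related DNA-binding domain. B-MYB is made in most dividing cells and binds the MuvB complex, with which it activates genes of the G2 and M phases, and FOXM1 joins the complex later in the cycle. A-MYB is best known from the testis, where it drives genes of meiosis in the male germline, and c-MYB from blood cell precursors and colon crypts. An siRNA lowers its target through long pairing with it, and siRNAs are also known to lower other transcripts whose 3' untranslated region (3' UTR) pairs with only the short seed of the siRNA.

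The deposited tables give 1 fold change per gene and comparison with its standard error, so no value per library can be shown and read depth per library is unknown. The siMYBL1 table listed 17323 genes down to a base mean (the authors' normalized count of a gene averaged over the compared libraries) of 4.46, and the siMYBL2 table listed 13387 genes down to 28.4. The 3936 genes in the siMYBL1 table alone had a median base mean of 9.67 and are not compared here, and 4 of them carried a deposited adjusted p under 0.05. Epithelial markers were present, with base means of 5572 for EPCAM and 1579 for CDH1 for siMYBL1 and siCtrl together in the authors' deposited tables. Of the lists of markers, 22 of 27 epithelial, 13 of 27 mesenchymal and 1 of 21 blood cell genes were in both tables, and none of them passed the test of the difference. Summed over its listed members, the base mean in the authors' deposited tables was 86785 in the siMYBL1 table and 91484 in the siMYBL2 table for the epithelial list, and 7066 in the siMYBL1 table and 7193 in the siMYBL2 table for the mesenchymal list.

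The targeted genes were read first. MYBL2 (ENSG00000101057, hg38 chromosome 20, 43667019 to 43716495) had a log2 fold change of -0.03 (SE 0.15) after siMYBL1 and -3.47 (SE 0.18) after siMYBL2 in the authors' deposited tables. Its difference of 3.43 (SE 0.24), or 10.8-fold, had the smallest adjusted p of all genes, 5.60e-43 in the normal test of the difference with Benjamini-Hochberg adjustment. MYBL1 (ENSG00000185697, chromosome 8, 66562175 to 66614247) had a log2 fold change of -1.67 (SE 0.32) after siMYBL1 and -0.40 (SE 0.27) after siMYBL2 in the authors' deposited tables. Its difference of -1.27 (SE 0.42) ran in the direction of the label and did not pass, with an adjusted p of 0.242 in the normal test of the difference. MYB, the third member of the family, differed by 0.18 (SE 0.44) and did not pass either. By value, each target was thus lower after its own siRNA than after the other.

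Between the knockdowns, 66 genes passed an adjusted p of 0.05, which is 0.493% of the 13387 tested, with 52 higher (0.388%) and 14 lower (0.105%) after siMYBL1. The median difference over all genes was 0.02, and 701 genes (5.24%) had an unadjusted p under 0.05. That share is near what this threshold passes where no gene differs and the error is right. The standard error sums the errors of both tables although their controls are the same libraries, so it is too large. With the summed variance multiplied by 0.5, which is right where all groups vary alike, 500 genes passed (3.73%), 348 of them higher (2.6%) and 152 lower (1.14%). The 66 genes are all among those 500. Over all genes, the difference divided by its error had a robust standard deviation of 0.85 with the summed variance. With the variance multiplied by 0.5 it was 1.20, so if most genes do not differ, that smaller error is too small and 500 too many. Against siCtrl, the authors' deposited tables called 41 of the same 13387 genes after siMYBL1 (0.306%), 17 higher (0.127%) and 24 lower (0.179%). They called 151 after siMYBL2 (1.13%), 39 higher (0.291%) and 112 lower (0.837%). The table of both siRNAs called 895 of its 12885 genes (6.95%), 364 higher (2.82%) and 531 lower (4.12%).

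**Figure D1:**
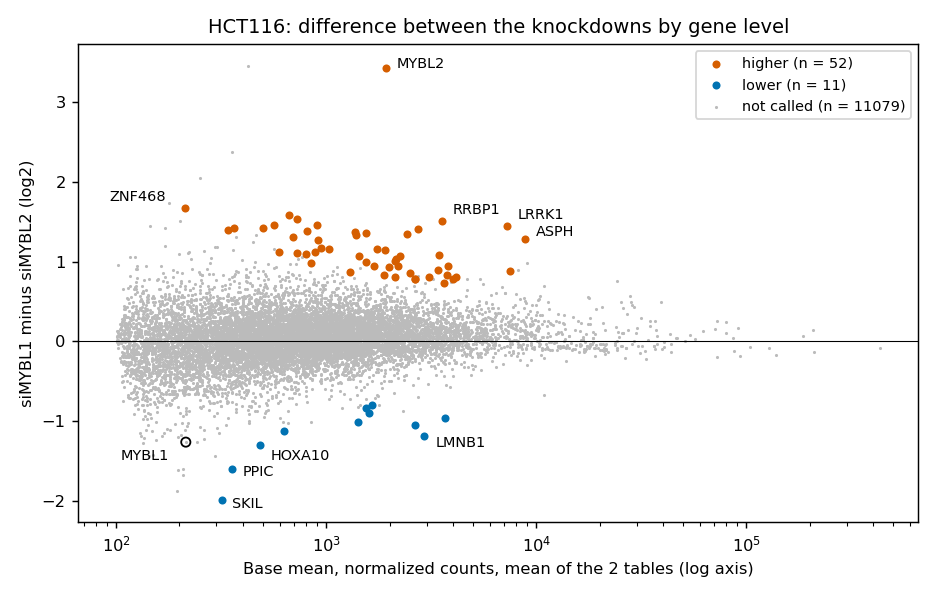
Difference between the knockdowns (siMYBL1 minus siMYBL2, log2, vertical axis) against the base mean averaged over the 2 tables (normalized counts, log axis), 1 point for each gene whose base mean was 100 or more in both tables. Coloured points are genes called higher (n = 52) or lower (n = 11) after siMYBL1, and MYBL2 stands alone at 3.43 while the ringed MYBL1, at -1.27, was not called.

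The 52 genes higher after siMYBL1 lay mostly below siCtrl after siMYBL2. Their median log2 fold change was 0.21 after siMYBL1 and -0.77 after siMYBL2 in the authors' deposited tables. By value, 42 of the 52 were above siCtrl after siMYBL1 and below it after siMYBL2, against 3178 of all 13387 genes. Choosing genes by a large positive difference favours these signs. Of the 52, 37 were called lower after siMYBL2 in the authors' deposited tables, 8 were called higher after siMYBL1, and 10 were called in neither. After both siRNAs together their median was -0.68 in the authors' deposited table. That table and the single-knockdown tables share the siCtrl libraries, so their values stand side by side and are not tested against each other. Differences among the 52 ran from 0.74 for NSD2, a histone methyltransferase, to 3.43 for MYBL2, with a median of 1.12.

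The 14 genes lower after siMYBL1 split differently. Their median log2 fold change was -0.76 after siMYBL1 and 0.42 after siMYBL2 in the authors' deposited tables. By value, 12 of the 14 were below siCtrl after siMYBL1 and above it after siMYBL2, against 2645 of all 13387 genes. Here too the choice by difference favours opposite signs. Of the 14, 8 were called lower after siMYBL1 in the authors' deposited tables, 4 were called higher after siMYBL2, and 2, SKIL and IGF2BP3, were called in neither. After both siRNAs the 13 that are listed had a median of -0.29 in the authors' deposited table. All 14 were protein-coding genes, as were 42 of the 52 higher ones.

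**Figure D2:**
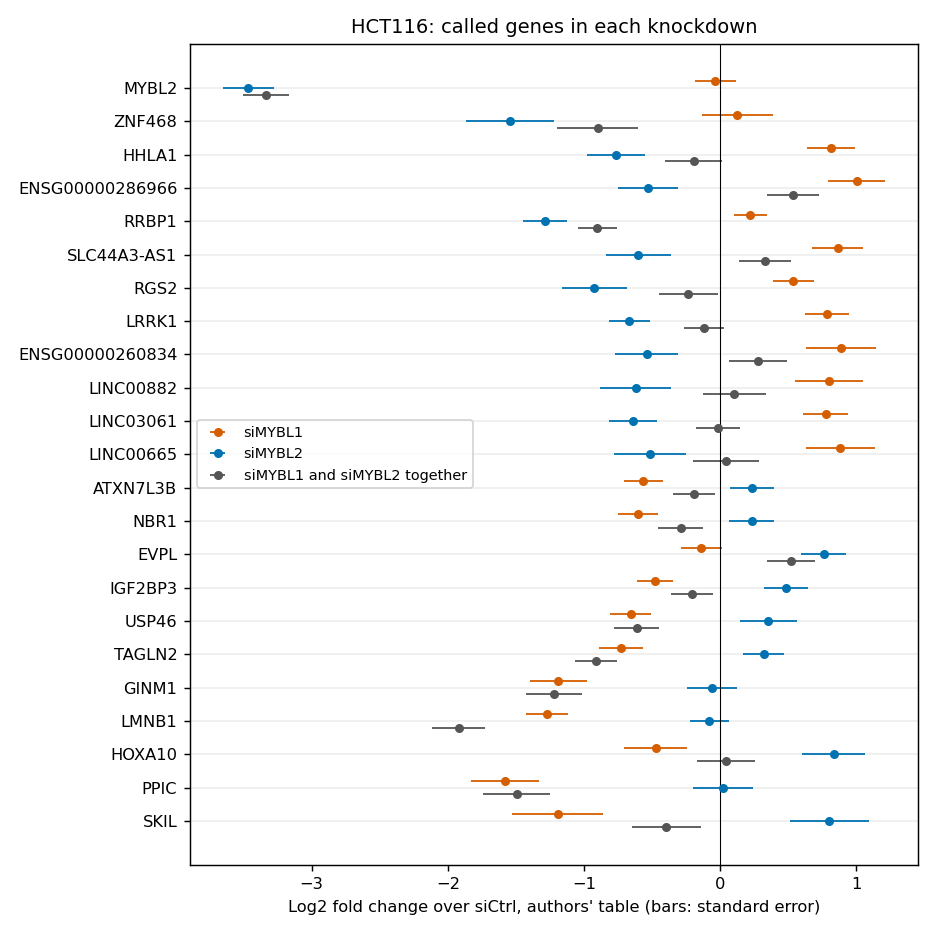
Log2 fold change over siCtrl (horizontal axis, bars are standard errors) from the authors' deposited tables, for the called genes of largest difference (12 higher, 11 lower) whose base mean was 100 or more in both tables. Each gene has 1 point for siMYBL1, 1 for siMYBL2 and 1 for both siRNAs, and the siMYBL1 point lies right of the siMYBL2 point for the genes from MYBL2 down to LINC00665 and left of it for those from ATXN7L3B down to SKIL.

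Among coding genes higher after siMYBL1, the largest differences after MYBL2 itself were those of ZNF468, HHLA1 and RRBP1. ZNF468, a zinc finger gene (chromosome 19), had a log2 fold change of 0.13 after siMYBL1 and -1.55 after siMYBL2 in the authors' deposited tables. Its difference was 1.67 (SE 0.41, adjusted p 0.0166 in the normal test of the difference). RRBP1, a ribosome-binding protein of the endoplasmic reticulum (ENSG00000125844, chromosome 20, 17613678 to 17682295), stood at 0.22 after siMYBL1 and -1.29 after siMYBL2 in the authors' deposited tables. With a difference of 1.51 (SE 0.20), it had the smallest adjusted p after MYBL2, 5.08e-10 in the normal test of the difference. Both genes were thus near siCtrl after siMYBL1 and below it after siMYBL2.

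LRRK1 and HHLA1 were called higher after siMYBL1 and lower after siMYBL2 against siCtrl. LRRK1, a leucine-rich repeat kinase (ENSG00000154237, chromosome 15, 100919327 to 101078257), had 0.78 (SE 0.16) after siMYBL1 and -0.67 (SE 0.15) after siMYBL2 in the authors' deposited tables, and was called in each. Its difference was 1.45 (SE 0.22, adjusted p 2.06e-07 in the normal test of the difference), and after both siRNAs it stood at -0.12 (SE 0.15) in the authors' deposited table. RGS2, which shortens signalling by heterotrimeric G proteins, differed by 1.46 (SE 0.29), with 0.54 after siMYBL1, which was not called, and -0.92 after siMYBL2, which was, in the authors' deposited tables. HHLA1 (chromosome 8) differed by 1.58 (SE 0.28), and had 0.81 after siMYBL1, -0.77 after siMYBL2 and -0.20 after both in the authors' deposited tables. For LRRK1 and HHLA1, the value after both siRNAs lay between those of the single knockdowns.

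Long noncoding RNAs made up 9 of the 52 genes higher after siMYBL1 (17.3%) and none of the 14 lower, against 8.29% of all genes tested. The 9 had a median log2 fold change of 0.88 after siMYBL1 (range 0.71 to 1.02) in the authors' deposited tables. After siMYBL2 their median was -0.53 (-0.64 to -0.35) in the authors' deposited tables. By value, each was thus above siCtrl after siMYBL1 and below it after siMYBL2, signs that the choice by difference favours. Against siCtrl, 5 of the 9 were called higher after siMYBL1 and only 1, LINC03061, was called lower after siMYBL2 in the authors' deposited tables. After both siRNAs their median was 0.09 in the authors' deposited table, with 1 of the 9 called there. LINC03061 differed by 1.41 (SE 0.24, adjusted p 1.18e-05 in the normal test of the difference), ESRG by 1.34 (SE 0.25) and LINC02582 by 1.38 (SE 0.30). LINC00882 differed by 1.42 (SE 0.36), LINC00665 was 2.64-fold higher, and of 4 without a symbol ENSG00000286966 differed by 1.53 (SE 0.31) and ENSG00000260834 by 1.43 (SE 0.35). A further called gene of similar pattern, SLC44A3-AS1, annotated as a transcribed pseudogene, differed by 1.46 (SE 0.30). It is named as antisense to another gene, and no source used here says whether the counting used strand, so its reads cannot be told apart from those of an overlapping gene. The class as a whole did not share this: the median difference over all 1110 long noncoding RNAs was -0.06, and 499 were above 0.

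Further coding genes called higher were named after their values were seen, and no list was made of them. LAMP1, a membrane protein of lysosomes, differed by 1.08 (SE 0.21), and LIPA, the lysosomal acid lipase, by 1.09 (SE 0.26). SRPRA, a subunit of the receptor for the signal recognition particle, differed by 1.15 (SE 0.28), and MIA3, needed for export of collagen from the endoplasmic reticulum, by 0.98 (SE 0.26). CERK, which makes ceramide 1-phosphate, differed by 1.33 (SE 0.22), and NUMB, an inhibitor of Notch signalling, by 1.31 (SE 0.26). LAMP1, LIPA, CERK and NUMB had log2 fold changes of 0.01, 0.06, 0.00 and -0.05 after siMYBL1, and -1.07, -1.04, -1.33 and -1.36 after siMYBL2, in the authors' deposited tables. These 4 were within 1 standard error of siCtrl after siMYBL1 and were called lower after siMYBL2.

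The other coding genes called higher, also named after their values were seen, had differences from 0.78 for EIF4EBP2, a repressor of translation, to 1.36 for DAP, a protein that restrains autophagy. ASPH, an aspartate hydroxylase of the endoplasmic reticulum, differed by 1.28 (SE 0.21), RAI14 by 1.08 (SE 0.22), SLC7A1, a carrier of cationic amino acids, by 1.03 (SE 0.25), and EXTL3, an enzyme of heparan sulfate synthesis, by 0.99 (SE 0.23). ATG12, which is conjugated to ATG5 in autophagy, differed by 1.16 (SE 0.25), with 0.65 after siMYBL1, -0.51 after siMYBL2 and 0.34 after both in the authors' deposited tables, and was called in none of them. CAV1, the coat protein of caveolae, differed by 0.90 (SE 0.24), IMMT, which shapes mitochondrial cristae, by 0.79 (SE 0.20), and HLTF, a helicase-like DNA repair factor, by 0.83 (SE 0.21). Those not described elsewhere were PTP4A1, RDH11, UHMK1, VANGL1, SLAIN2, NTSR1, B4GALT5, MYO1C, ICMT, ABCF2, CRTAP, IFT57 and EHD2, between 0.78 and 1.18.

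Among the genes lower after siMYBL1, SKIL had the largest difference where the base mean was 100 or more. SKIL, a repressor of SMAD signalling (ENSG00000136603, chromosome 3, 170357678 to 170396835), had -1.19 (SE 0.34) after siMYBL1 and 0.80 (SE 0.29) after siMYBL2 in the authors' deposited tables. The difference was -1.996 (SE 0.45, adjusted p 0.00396 in the normal test of the difference). HOXA10, a homeobox transcription factor, differed by -1.31 (SE 0.33), with -0.47 after siMYBL1 and 0.83 after siMYBL2 in the authors' deposited tables. EVPL, the envoplakin of epithelial cell junctions, differed by -0.90 (SE 0.22), with -0.14 after siMYBL1 and 0.76 after siMYBL2 in the authors' deposited tables. HOXA10 and EVPL were called higher after siMYBL2 and not called after siMYBL1.

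LMNB1 and PPIC were low after siMYBL1 and near siCtrl after siMYBL2. LMNB1, the B-type lamin of the nuclear lamina (ENSG00000113368, chromosome 5, 126776623 to 126837020), had -1.27 (SE 0.15) after siMYBL1, -0.08 (SE 0.14) after siMYBL2 and -1.92 (SE 0.19) after both in the authors' deposited tables. Its difference was -1.19 (SE 0.21, adjusted p 2.44e-05 in the normal test of the difference). PPIC, a peptidyl-prolyl isomerase of the cyclophilin family (ENSG00000168938, chromosome 5, 123023250 to 123036725), had -1.58 (SE 0.25) after siMYBL1, 0.02 (SE 0.22) after siMYBL2 and -1.50 (SE 0.25) after both in the authors' deposited tables. Its difference was -1.60 (SE 0.33). GINM1, a membrane glycoprotein, differed by -1.13 (SE 0.28), TAGLN2, an actin-binding transgelin, by -1.05 (SE 0.22), and USP46, a deubiquitinase, by -1.01 (SE 0.26). IGF2BP3, an RNA-binding protein, differed by -0.96 (SE 0.21), NBR1, an autophagy receptor, by -0.84 (SE 0.22), and ATXN7L3B by -0.80 (SE 0.22).

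The remaining 3 genes called lower had a base mean under 100 in the siMYBL1 table and larger errors. PADI3, a peptidylarginine deiminase, differed by -2.86 (SE 0.61) and DRAXIN, a secreted axon guidance protein, by -2.55 (SE 0.59), and both are named after their values were seen. H4C15, a histone H4 gene, differed by -8.09 (SE 1.84) at a base mean of 14.3 for siMYBL1 and siCtrl together in the authors' deposited tables. Histone H4 genes have near-identical copies among which reads can be split, so its value is uncertain. At the threshold itself, CAV1, EIF4EBP2 and ATXN7L3B were the last genes inside, with adjusted p of 0.0416, 0.0428 and 0.0444 in the normal test of the difference, and LINC01013, AASDHPPT and UTRN the first outside, with 0.0522, 0.0529 and 0.0532.

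Sequence shared by the called genes was then described through 7-base words (7-mers) of their annotated 3' UTRs, taking the longest UTR of each gene from GENCODE 29 on hg38. The 7-mers were ranked in U2OS alone, on 10999 genes and 15866 7-mers, by the regression of the U2OS difference on holding the 7-mer with UTR length as a covariate. The most negative, which goes with lower levels after siMYBL1, was GAACTTA, and the most positive, which goes with lower levels after siMYBL2, was CCTTACA. The same 7-mers came first in each direction when HCT116 itself was ranked. The overlapping 7-mer AACTTAA had rank 2 among the most negative in both lines. Sites of 5 called genes of large difference in each direction are shown, read 5′ to 3′ on the transcribed strand with the 7-mer in capitals. In all 5 GAACTTA sites shown, the base after the 7-mer is also shared, an a.
PPIC, chr5:123023653-123023677, minus strand: agggactttGAACTTAaatatatcc
LMNB1, chr5:126836471-126836495, plus strand: attgacactGAACTTAataactgtg
GINM1, chr6:149591540-149591564, plus strand: aaaggtcaaGAACTTAacacttatt
TAGLN2, chr1:159918339-159918363, minus strand: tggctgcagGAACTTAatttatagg
USP46, chr4:52596073-52596097, minus strand: tattgctcaGAACTTAagtaagcat
RRBP1, chr20:17614121-17614145, minus strand: accaaaatgCCTTACAcattcctta
DAP, chr5:10680904-10680928, minus strand: tgtcctttgCCTTACAtttccatat
CERK, chr22:46686608-46686632, minus strand: ctgcttgatCCTTACAatactgtgc
NUMB, chr14:73276301-73276325, minus strand: cccttacccCCTTACAaatctctgg
SLAIN2, chr4:48423240-48423264, plus strand: tagattctgCCTTACAtcaattttt

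GAACTTA stood in the 3' UTR of 8 of the 14 genes called lower, or 57.1% (exact 95% interval 28.9 to 82.3%), in 4 of the 42 coding genes called higher, or 9.52%, and in 9.67% of all 11949 genes with a UTR. CCTTACA stood in 18 of the 42 called higher, or 42.9% (27.7 to 59.0%), in none of the 14 called lower, and in 8.69% of all. The intervals cover counting error only. The 8 holders of GAACTTA were PPIC, LMNB1, GINM1, TAGLN2, USP46, IGF2BP3, NBR1 and ATXN7L3B. The 6 called lower without it were SKIL, HOXA10, EVPL, PADI3, DRAXIN and H4C15. Median UTR length was 1360 bases in the genes called lower, 1880 in those called higher and 1397 in all.

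The single arms were then set side by side for genes with and without the 7-mers. The 8 holders of GAACTTA had a median log2 fold change of -0.69 after siMYBL1 and 0.23 after siMYBL2 in the authors' deposited tables, with 7 of the 8 called after siMYBL1 and none after siMYBL2. The 6 without it had -0.99 after siMYBL1 and 0.84 after siMYBL2 in the authors' deposited tables, with 1 called after siMYBL1 and 4 after siMYBL2. The 18 holders of CCTTACA, RRBP1, DAP, CERK, NUMB, ASPH, LAMP1 and LIPA among them, had medians of 0.05 after siMYBL1 and -1.06 after siMYBL2 in the authors' deposited tables. In the authors' deposited tables none of the 18 was called after siMYBL1 and 17 were called lower after siMYBL2. The 24 coding genes called higher without CCTTACA, MYBL2 included, had medians of 0.19 after siMYBL1 and -0.78 after siMYBL2 in the authors' deposited tables, with 2 called after siMYBL1 and 19 after siMYBL2, so both kinds lay mainly below siCtrl after siMYBL2. These kinds were chosen after the values were seen and carry no test.

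Over all holders, called genes included, the medians lay close together. Where the base mean was 100 or more, the 855 holding GAACTTA alone had a median difference of -0.05, the 736 holding CCTTACA alone 0.12, the 196 holding both 0.01 and the 8820 holding neither 0.05. In that order their median UTR lengths were 2962, 2890, 5451 and 1194 bases, and these median differences are not adjusted for length. The MYBL1 transcript itself holds GAACTTA 2 times and CCTTACA 0 times, and the MYBL2 transcript holds CCTTACA 1 time and GAACTTA 0 times, in each case outside the 3' UTR. The sequences of the siRNAs were not analysed here, and whether these 7-mers pair with them was not tested. With the 1975 genes that hold either 7-mer left out, an alternative chosen after seeing the data, 38 genes passed, 32 higher and 6 lower, against 66, 52 and 14 with them. The drop comes from taking out the called holders themselves. Of the called genes that hold neither 7-mer, only CCNF no longer passed.

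**Figure D3:**
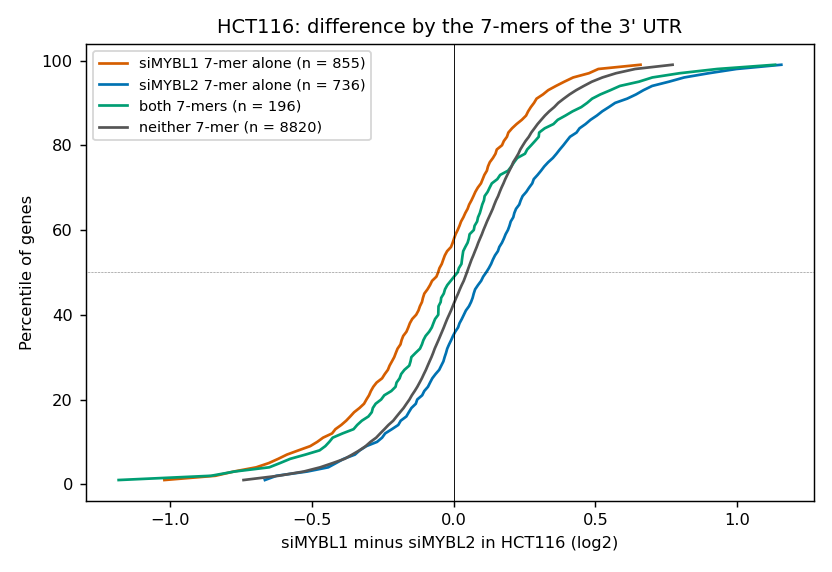
Cumulative distribution of the HCT116 difference (siMYBL1 minus siMYBL2, log2, horizontal axis, percentile of genes on the vertical axis) for genes whose base mean was 100 or more in both tables, split by which 7-mer the 3' UTR holds. The curve of genes with the siMYBL1 7-mer alone (GAACTTA, median -0.05) lies left of that of genes with neither (0.05), and the curve of genes with the siMYBL2 7-mer alone (CCTTACA, 0.12) lies right of it. The curves are not adjusted for UTR length.

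Most genes of mitosis had slightly higher values after siMYBL1 than after siMYBL2, and 4 of them passed the test. The 5 mitotic lists held 119 genes, of which 4 were called higher and 0 lower, against 52 higher (0.388%) and 14 lower (0.105%) of all 13387 genes. Their median difference was 0.28 against 0.02 for all genes, with 95 of the 119 above 0, against 7105 of all 13387. Their median log2 fold change was -0.17 after siMYBL1, -0.41 after siMYBL2 and -1.43 after both siRNAs in the authors' deposited tables. Of the 119, 0 were called lower after siMYBL1, 37 after siMYBL2 and 99 after both in the authors' deposited tables. Over all genes in the authors' deposited tables, 0.179% were called lower after siMYBL1, 0.837% after siMYBL2 and 4.12% after both. With the variance multiplied by 0.5, 27 were called higher and 0 lower, against 348 higher (2.6%) and 152 lower (1.14%) of all genes.

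The 4 called were DEPDC1B, CKS1B, CCNF and PRR11. DEPDC1B, which acts on adhesion as cells enter mitosis (chromosome 5, 60596912 to 60700190), differed by 1.11 (SE 0.26, adjusted p 0.00788 in the normal test of the difference), with -0.09 after siMYBL1 and -1.20 after siMYBL2 in the authors' deposited tables. CKS1B, the small subunit that binds cyclin-dependent kinases, differed by 1.01 (SE 0.24, adjusted p 0.0116 in the normal test of the difference). CCNF, a cyclin that serves as an F-box protein, differed by 0.86 (SE 0.23), and PRR11, a proline-rich cell cycle protein, by 0.80 (SE 0.21). None of these 4 was called after siMYBL1 and all 4 were called lower after siMYBL2 and after both siRNAs in the authors' deposited tables. PRR11 and CCNF no longer passed when differences were centred on the median of all genes.

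By role, the 34 genes of the spindle, kinesins and cytokinesis had the highest list median of the mitotic ones, 0.40, with 2 called higher and 32 above 0. The 26 mitotic cyclins, kinases and entry factors had a median of 0.30 with 2 called higher, and the 13 genes of condensin and the mitotic chromosome 0.26 with none called. The 25 kinetochore and checkpoint genes had 0.29 and the 21 genes of the anaphase-promoting complex and anaphase 0.08, with none called in either. CENPE, the kinetochore kinesin, had a difference of 1.06 (SE 0.30, adjusted p 0.0745 in the normal test of the difference), and SPC25, of the NDC80 complex, 0.77 (SE 0.29). ANAPC13, a subunit of the anaphase-promoting complex, had 0.96 (SE 0.27), UBE2C, its ubiquitin-conjugating enzyme, 0.54 (SE 0.24), and the proliferation antigen MKI67 0.70 (SE 0.25). None of these 5 passed.

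The central genes of mitotic control did not pass the test either. CDK1, the kinase that drives entry into mitosis, had a difference of 0.30 (SE 0.20), its cyclin CCNB1 0.39 (SE 0.20) and the kinase PLK1 0.33 (SE 0.22). AURKA, the kinase of spindle poles, had -0.16 (SE 0.22), TOP2A, which untangles DNA, 0.40 (SE 0.20), and FOXM1 0.28 (SE 0.23). For CDK1 the log2 fold change was -0.34 (SE 0.14) after siMYBL1, -0.64 (SE 0.15) after siMYBL2 and -1.46 (SE 0.21) after both in the authors' deposited tables. For PLK1 it was -0.18 (SE 0.15) after siMYBL1, -0.51 (SE 0.15) after siMYBL2 and -2.19 (SE 0.20) after both in the authors' deposited tables. Each of the 6 genes was lower after both siRNAs than after either alone, by value, with controls shared between those tables.

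**Figure D4:**
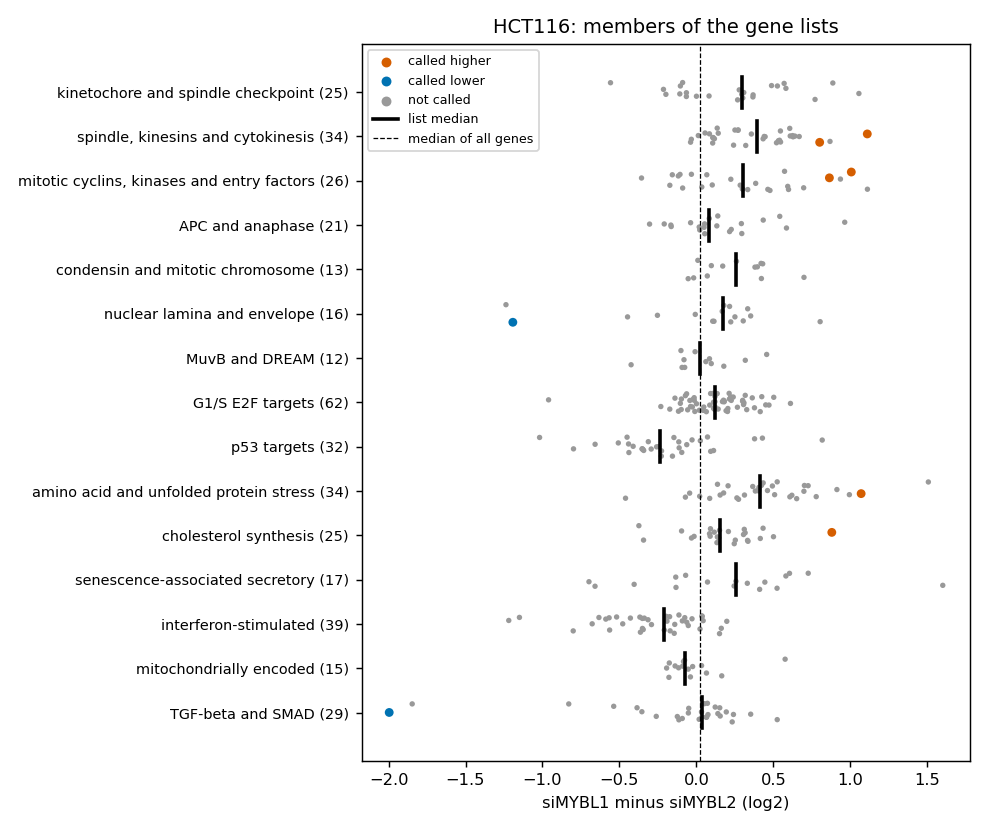
Difference between the knockdowns (siMYBL1 minus siMYBL2, log2, horizontal axis) for each member of 15 gene lists, with the number of members in brackets, the list median as a thick bar and the median of all genes (0.02) as a dashed line. Called members are coloured, and the bars of the mitotic and stress lists lie right of the dashed line while those of the p53 and interferon lists (-0.24 and -0.21) lie left of it.

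Other parts of the cell cycle machinery held no called gene. The 62 G1/S genes driven by E2F factors had a median difference of 0.12 with 0 called, CCNE2, a cyclin of S phase entry, at -0.96 (SE 0.29) and UHRF1, a partner of DNA methyltransferase, at 0.47 (SE 0.20). The 12 genes of MuvB and the related DREAM repressor had a median of 0.03 with 0 called, E2F4 at 0.46 (SE 0.22) and TFDP2 at -0.42 (SE 0.27). The 32 listed p53 targets had a median of -0.24 with 0 called and 7 above 0. CDKN1A, the p53 target that inhibits cyclin-dependent kinases, had a difference of -0.34 (SE 0.20), with 0.22 after siMYBL1, 0.57 after siMYBL2 and 1.70 after both in the authors' deposited tables. The death receptor TNFRSF10B had 0.82 (SE 0.24) and RRM2B, a subunit of ribonucleotide reductase, -0.80 (SE 0.26), and neither passed.

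Of the stress genes, 1 was called. The 34 genes of amino acid and unfolded protein stress had a median difference of 0.41, 31 of them above 0, and ASNS, the asparagine synthetase, was called at 1.07 (SE 0.27, adjusted p 0.0189 in the normal test of the difference). ASNS had 0.21 after siMYBL1 and -0.86 after siMYBL2 in the authors' deposited tables, and AARS1, an alanyl-tRNA synthetase, had a difference of 0.65 (SE 0.23) and did not pass. With the variance multiplied by 0.5, 9 of the 34 were called higher, against 348 (2.6%) of all 13387 genes. The 25 cholesterol synthesis genes had a median of 0.15, with 20 above 0, and LSS, which closes the sterol ring, had 0.50 (SE 0.23) and did not pass.

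The lamina list of 16 genes held LMNB1 as its 1 called member, with a list median of 0.17, and SUN2, which links the lamina to the cytoskeleton, at 0.80 (SE 0.23, adjusted p 0.0637 in the normal test of the difference). The 29 listed TGF-beta and SMAD genes held SKIL as their 1 called member, with a median of 0.04, and the inhibitor SMAD7 at -1.85 (SE 0.77) did not pass. The 19 listed replication-dependent histone genes had a median of -0.05 and H4C15 as the 1 called, with H2BC5 at -1.22 (SE 0.66). Only 4 of the 19 had a base mean of 100 or more, where the median was -0.48. The median SE of the 19 was 2.01, so their list median says little. No member was called among 17 senescence-associated secretory genes (median 0.26, CXCL8 at 1.60 with SE 0.59, PLAU at 0.73 with SE 0.29) or 39 interferon-stimulated genes (median -0.21, DDX58 at -1.15 with SE 0.45, IFITM2 at -0.48 with SE 0.24). The 15 mitochondrially encoded genes had a median of -0.08 with none called, MT-ND6 at 0.58 (SE 0.19) and MT-CYB at -0.19 (SE 0.25). The list medians of the epithelial and mesenchymal markers were 0.06 and -0.18, with CLDN3 at -0.86 (SE 0.36), PRSS8 at 0.60 (SE 0.29) and FN1 at -0.78 (SE 0.38). VIM was at -2.15 (SE 0.88), with a base mean of 32.6 for siMYBL1 and siCtrl together in the authors' deposited tables.

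The same difference was taken in U2OS, which shares no library with HCT116. There 429 of 14701 genes passed (2.92%), 326 higher (2.22%) and 103 lower (0.701%) after siMYBL1. Of the 52 genes called higher in HCT116, 50 are listed in U2OS, all 50 had a positive difference there and 39 were called higher. Of the 14 called lower in HCT116, 13 are listed in U2OS, 12 had a negative difference and 6 were called lower. Across 10275 genes whose base mean was 100 or more in all 4 tables, the differences of the lines had a Pearson correlation of 0.54, a description over genes, which are not independent of each other. The correlation and these counts include the genes that hold the 7-mers.

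MYBL2 differed by 3.43 (SE 0.24) in HCT116 and 4.17 (SE 0.26) in U2OS, LRRK1 by 1.45 (SE 0.22) in HCT116 and 1.59 (SE 0.28) in U2OS, and RRBP1 by 1.51 (SE 0.20) in HCT116 and 1.67 (SE 0.24) in U2OS. LMNB1 differed by -1.19 (SE 0.21) in HCT116 and -2.10 (SE 0.23) in U2OS, and PPIC by -1.60 (SE 0.33) in HCT116 and -2.12 (SE 0.29) in U2OS. The 8 HCT116 genes that hold GAACTTA all had negative values in U2OS and 6 of them were called lower there, while of the 5 listed without it 4 were negative and 0 were called. SKIL, for example, had -1.996 (SE 0.45) in HCT116 and -0.57 (SE 0.29) in U2OS, and HOXA10 -1.31 (SE 0.33) in HCT116 and -0.70 (SE 0.40) in U2OS. All 18 HCT116 genes that hold CCTTACA had positive values in U2OS, with 15 called, as had the 8 listed long noncoding RNAs, with 6 called, and the 4 mitotic genes, with 4 called. The 7-mers were picked in U2OS, so its counts of their holders are not independent of that choice. The median difference of the stress list was 0.41 in HCT116 and 0.87 in U2OS, where 13 of its 36 listed genes were called higher, and that of the cholesterol list was 0.15 in HCT116 and 0.72 in U2OS, where 11 of 24 were called higher. The 119 mitotic genes had a median of 0.28 in HCT116 and 0.08 in U2OS, where 8 were called higher and 2 lower. Of all 14701 genes in U2OS, 326 (2.22%) were called higher and 103 (0.701%) lower. Other list medians had opposite signs in the lines, with 0.26 in HCT116 and -0.15 in U2OS for condensin and the mitotic chromosome, 0.12 in HCT116 and -0.23 in U2OS for G1/S genes, and -0.24 in HCT116 and 0.21 in U2OS for p53 targets. No member of these lists passed the test between the lines.

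**Figure D5:**
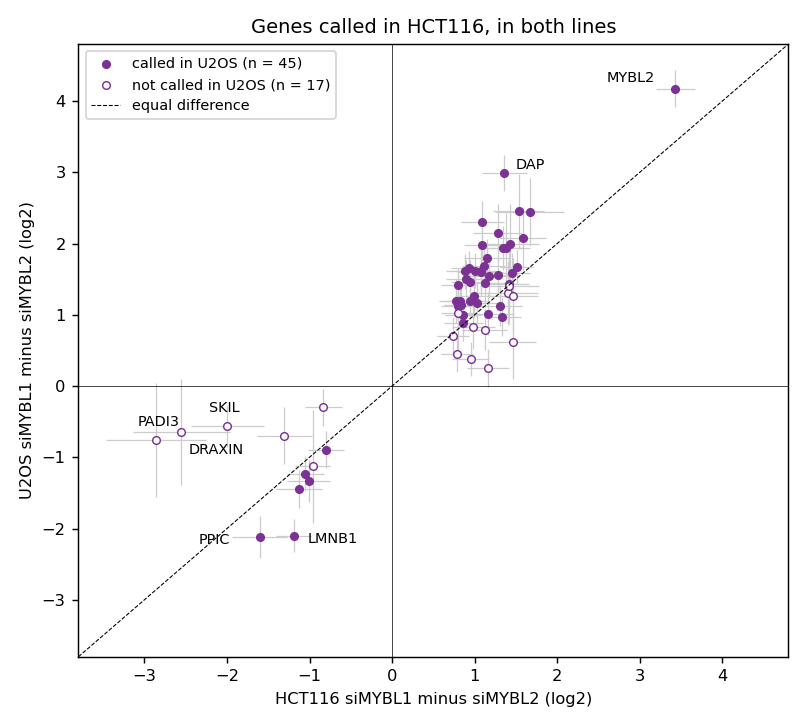
Difference between the knockdowns (siMYBL1 minus siMYBL2, log2) in HCT116 (horizontal axis) and U2OS (vertical axis) for the genes called in HCT116 and listed in U2OS, leaving out H4C15 (-8.09 in HCT116), with bars of 1 standard error. Filled points were also called in U2OS (39 higher, 6 lower). Among them DAP, at 1.36 in HCT116 and 2.99 in U2OS, lies farthest above the dashed line of equal difference. The open points of PADI3 and DRAXIN, with larger errors, lie farther above it.

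Tested directly over the 12380 genes of all 4 tables, the difference between the knockdowns itself differed between the lines for 4 genes (0.0323%), 0 higher and 4 lower in HCT116. Of the 66 genes called in HCT116, only DAP, a protein that restrains autophagy, was among them, with 1.36 (SE 0.27) in HCT116 and 2.99 (SE 0.26) in U2OS. At an unadjusted p under 0.05, 311 of the 12380 genes passed. That is fewer than this threshold passes where no gene differs and the error is right, so they are not read as line differences. PDGFC, a growth factor, had -0.27 (SE 0.39) in HCT116 and 2.57 (SE 0.37) in U2OS, and CITED2, a transcriptional co-regulator, 0.03 (SE 0.28) in HCT116 and 1.92 (SE 0.32) in U2OS. The errors of 4 tables add up in this test, and a gene that did not pass it is not shown to respond alike in the lines.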

How the data were processed

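Total RNA of HCT116 and U2OS cells was sequenced in pairs of reads after siRNA treatment. Cutadapt 4.4, Salmon 1.10.1, DESeq2 1.40 and the build hg38 are named in the submitters' processing notes, without order or settings. The sources used here do not give the annotation, strand setting or filters. The data used were 5 of 6 tables of the authors' own comparisons with siCtrl. Per the file headers, base mean is a signal, namely a gene's normalized count averaged over the compared libraries. Knockdown over siCtrl is deposited as a log2 fold change and a standard error. Their quotient, the Wald statistic, is a deposited score. Each deposited p-value comes with the authors' Benjamini-Hochberg adjusted p-value. Libraries' depths are unknown, and the deposited errors rest on 2 libraries a group. The p-values set a difference against those errors, so they speak of these cultures alone.

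For each gene of both HCT116 tables, the log2 fold changes were subtracted (siMYBL1 minus siMYBL2), divided by the root of the summed squared errors, and given a 2-sided normal p with Benjamini-Hochberg adjustment over 13387 genes (scipy 1.17.1, statsmodels 0.14.6, pandas 2.3.3). A gene was called at an adjusted p under 0.05. The difference between lines used the errors of 4 tables. The step was tested on simulated data.

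The members, the 16 gene lists, the 3 marker lists and the tests were chosen with earlier results of these data known. The MYB family, CDK1, CCNB1, PLK1, AURKA, TOP2A, CDKN1A, FOXM1 and LMNB1 were always named. The rule then took up to 12 genes a direction with the largest difference among those called at a base mean of at least 100 in both tables, up to 4 called members of each list, and members of largest statistic up to 2 a list as values. Others are said to be named after their values were seen. Some genes stand in 2 lists. A few genes meeting the rule are not reported here. The 3' UTRs came from GENCODE 29. Alternatives were the summed variance multiplied by 0.5, base means of at least 100 or 50, centring on the median, thresholds of 0.1 and 0.01, and removal of genes that hold a 7-mer.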

Additional observations from a re-analysis of the deposited data

Results flagged for a closer look

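Of the genes whose base mean was 100 or more in all 4 tables, the difference between the knockdowns itself differed between HCT116 and U2OS for PDGFC, CITED2 and DAP in the test of that difference (adjusted p over 12380 genes, normal test with Benjamini-Hochberg adjustment). PDGFC had -0.27 in HCT116 and 2.57 in U2OS, a line difference of -2.83 (SE 0.54, adjusted p 0.00164 in that normal test). CITED2 had 0.03 in HCT116 and 1.92 in U2OS, a line difference of -1.89 (SE 0.42), and DAP 1.36 in HCT116 and 2.99 in U2OS, a line difference of -1.63 (SE 0.37), both at an adjusted p of 0.0343 in that normal test. After siMYBL2, DAP stood at -1.05 (SE 0.21) in HCT116 and -2.59 (SE 0.19) in U2OS in the authors' deposited tables, and after siMYBL1 at 0.31 (SE 0.17) in HCT116 and 0.40 (SE 0.17) in U2OS.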

How the results depend on the processing

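No paired analysis was possible because the tables hold 1 fold change per comparison and no value per library, and leaving out a library could not be run for the same reason. The count of 66 genes (52 higher, 14 lower) moved most with the error: the variance multiplied by 0.5 gave 500 (348 higher, 152 lower), took called list members from 9 to 56 and line differences from 4 to 110. An adjusted p under 0.01 left 33 (25 and 8). Leaving out holders of either 7-mer, chosen after seeing the data, left 38 (32 and 6), mainly because called genes are among the holders taken out. Base mean minimums of 100 and 50, both centrings and a threshold of 0.1 gave 57 to 86, with 55 to 66 of the 66 among them. Among named genes, 20 more passed with the variance multiplied by 0.5, MYBL1 and SPC25 among them, and 3 (CENPE, ANAPC13 and SUN2) also with the threshold of 0.1, PRR11 and CCNF were lost under both centrings, LINC00665 under that on genes whose base mean was 100 or more, and CCNF without the holders. CITED2, at 0.03, became -0.0127 under that last centring. With a base mean of at least 100, GAACTTA stood in 72.7% of genes called lower and CCTTACA in 42.9% of those called higher. The 6-mers ranked first in U2OS stood in 71.4% of genes called lower (AACTTA, against 42.9% of those called higher and 33.7% of all) and in 47.6% of genes called higher (CCTTAC, against 24.1% of all). When HCT116 itself was ranked, AACTTA again came first among the most negative. Among the most positive in HCT116, CCTTAC had rank 137 of 4096 and CGCCCA came first.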
